A study of Mus musculus with 6 samples.

Results

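The genes described here encode splicing regulators and related RNA-binding proteins. They were taken by symbol: the SR proteins (Srsf), the heterogeneous nuclear ribonucleoproteins (Hnrnp), and the Rbfox, Celf, Mbnl, Ptbp, Elavl, Khdrbs, Msi, Nova, Tra2 and Qk genes, 60 of the 22057 genes in the deposited table. These 60 genes form 12 families, and all 60 passed the filter on low values (a mean normalized count of at least 10). Symbols holding "-ps", which mark pseudogenes, were left out. There were 2 of these, Srsf3-ps and Hnrnpa1l2-ps2, at 0 to 6.39 normalized counts in every library.

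The RNA came from neural progenitor cells (precursors that divide and give rise to neurons and glia) cultured from p53-null mice numbered 62, 68 and 69. Every library in both groups therefore lacks p53, the tumour suppressor encoded by Trp53, and no p53-proficient cells were compared. In the control group, called EF, cells of each mouse spent 4 days in stem cell medium supplemented with EGF, FGF and heparin (n = 3). In the other group, cells of the same mice spent 4 days with PDGFA (n = 3). The 2 media differ both in the factors taken away and in the factor added, and a difference cannot be assigned to either. Age and strain of the animals are not stated in the labels, and p-values measure the spread between cultures of 3 animals.

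A gene's transcript is cut and joined in more than 1 way, and the proteins studied here steer that choice. SR proteins bind exons and recruit the splicing machinery, while many hnRNPs bind exons or their flanks and block it. Other families add a tissue-specific layer: Ptbp1 holds neuronal exons in a silent state in progenitors, the neuronal Elavl, Nova, Rbfox and Celf proteins act in neurons, and Qk acts in glia, where it is required for myelination. Many of these genes control their own level through exons that send the transcript to nonsense-mediated decay. GENCODE annotates at least 1 such transcript for 30 of the 60 genes. The deposited values are 1 number per gene, so exon choice itself was not measured.

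Libraries held 27270246 to 39601349 reads assigned to the genes of the deposited table. EF cultures varied more than PDGFA cultures, with a median SD over genes of 0.38 against 0.172 on the log2 scale. Dividing-cell markers fell in PDGFA for 10 of 10 genes tested, with sums of 45952 to 100856 in EF and 528.8 to 854.7 in PDGFA. Oligodendrocyte markers rose for 12 of 12, from sums of 3257 to 6442 to sums of 370485 to 446084, with Mog at 0 in all 3 EF libraries. Mog thus passed the filter on low values only through PDGFA, and its direction is tied to the filter. With a minimum mean of 50, 11 of 11 tested rose. Astrocyte markers rose for 5 of 9 and fell for 0, with sums of 51730 to 96730 in EF and 177592 to 286788 in PDGFA. Neural progenitor markers, which check the labelled cell type, were present in both groups: Sox2, Hes5 and Prom1 rose, Nes, Vim, Fabp7 and Notch1 fell, and Pax6 and Sox1 were not called. Oligodendrocyte precursor markers rose for 2 of 6 (Gpr17, C1ql1) and fell for 3 (Cspg4, Olig1, Olig2). With the mouse as a block Pdgfra and Slc1a2 were also called higher (adjusted p-values of 0.0217 and 0.0468), and Notch1 lost its call (0.0501). Of 7 microglial markers 5 were not in the table. These are bulk samples, so fewer cells of a type and less RNA per cell cannot be told apart.

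In PDGFA, 7 of the 60 genes rose and 12 fell at an adjusted p under 0.05 (limma with Benjamini-Hochberg adjustment over 17068 tested genes). The same test called 21.8% of all tested genes higher and 18.0% lower (39.8% either way), against 11.7% and 20.0% of the 60. The share that rose was thus below the background, and the share that fell was near it. The genes that rose were Khdrbs2, Elavl3, Celf3, Celf4, Celf5, Msi1 and Qk. Those that fell were Celf2, Hnrnpll, Elavl4, Mbnl1, Hnrnpdl, Ptbp1, Hnrnpa3, Tra2b, Khdrbs3, Mbnl3, Hnrnpa1 and Srsf9. Mbnl3, which is also among the 2-fold falls, passed the filter on low values only through its EF level. A change of at least 2-fold was called for 6 higher and 6 lower genes, against a background of 15.5% and 12.1%. The EF and PDGFA libraries did not overlap for 7 higher and 19 lower genes, where the background was 29.2% and 26.3%. edgeR called 7 higher and 13 lower (background 21.0% and 19.1%), and DESeq2 7 and 18 (23.1% and 21.9%). Among the 49 of the 60 with a mean of at least 1000, 3 rose and 10 fell, against 22.9% and 21.1% of all tested genes at that level. The median log2 fold change of the 60 was -0.28, and that of all tested genes was -0.01.

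Most of the falls were lost in at least 1 fit that left out a single library. Fewer libraries also widen each gene's error, and the removals cannot tell this apart from dependence on a given library. Celf2, Elavl3 and Khdrbs2 kept their call under each of the 18 alternatives run, and Celf3, Celf5, Elavl4, Hnrnpll and Mbnl1 also kept theirs without any single library. With the reads scaled to the total count, 6 genes rose and 20 fell, in place of 7 and 12. Under this scaling the median log2 fold change of the 60 was -0.33, in place of -0.28. The share of all tested genes called with total-count scaling is not given, here or for the lists below, so these counts have no background. Leaving out 1 library gave 5 to 8 higher and 4 to 22 lower. The largest count, 22, came without the EF library of mouse 62 and the smallest, 4, without the PDGFA library of mouse 69. Counts over all tested genes changed with these removals as well, and their range is given in the closing section. With the mouse as a block, which compares the 2 cultures of each animal, 6 rose and 8 fell, against 18.8% and 15.4% of all tested genes.

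**Figure D1:**
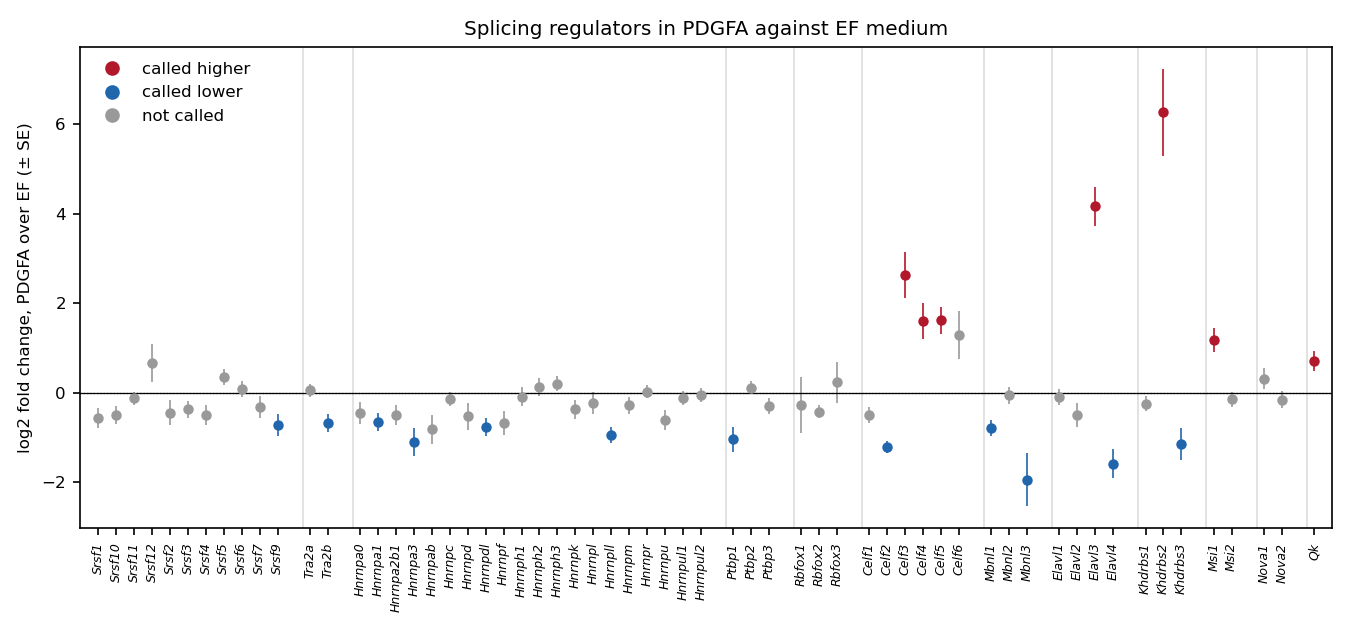
The log2 fold change of PDGFA over EF (y axis, bars are standard errors of the limma fit, n = 3 a group) is plotted for the 60 genes, grouped by family along the x axis. Khdrbs2 at 6.27 and Elavl3 at 4.17 stand above the other genes, while the SR and hnRNP genes lie between -1.10 and 0.67.

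The RNA-binding partners of a family are often close copies, and 3 families held members called in opposite directions: Elavl3 against Elavl4, Khdrbs2 against Khdrbs3, and Celf3, Celf4 and Celf5 against Celf2. Stretches of their coding sequence are shown because they tell how alike genes can be whose RNA moved apart. The longest complete coding sequences in GENCODE vM21 (GRCm38) were aligned for each pair. Elavl3 (1101 coding bases) and Elavl4 (1155) matched at 78.1% of 1098 aligned bases, Khdrbs2 (1047) and Khdrbs3 (1038) at 73.3% of 992, and Celf3 and Celf2 at 64.6% of 1357. The stretches of 90 bases with the most matches, on the coding strand from 5′ to 3′, are given with the bases that differ within a pair in capitals.
Elavl3 coding bases 960 to 1049: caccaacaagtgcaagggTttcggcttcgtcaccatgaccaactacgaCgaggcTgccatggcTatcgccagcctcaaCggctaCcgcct
Elavl4 coding bases 1014 to 1103: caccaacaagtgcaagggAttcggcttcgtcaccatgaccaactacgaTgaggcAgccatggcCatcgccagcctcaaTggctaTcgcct
Khdrbs2 coding bases 272 to 361: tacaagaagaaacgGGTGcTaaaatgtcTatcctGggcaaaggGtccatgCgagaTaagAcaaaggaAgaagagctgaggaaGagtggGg
Khdrbs3 coding bases 260 to 349: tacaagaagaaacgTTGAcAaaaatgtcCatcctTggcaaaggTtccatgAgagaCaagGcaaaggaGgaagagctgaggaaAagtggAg
The Elavl pair differed at 6 of these 90 bases and the Khdrbs pair at 14. The longest run of identical bases over the whole alignment was 29 for Elavl3 and Elavl4 and 16 for Khdrbs2 and Khdrbs3. How reads that match more than 1 gene were counted is not known from the labels.

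Elavl proteins bind AU-rich and U-rich RNA and stabilise it. Elavl1 is made in most cells, while Elavl2, Elavl3 and Elavl4 are the neuronal members. Elavl3 (chr9:22015005-22052023, minus strand) had 211.6, 827.5 and 360.5 normalized counts in the EF libraries of mice 62, 68 and 69, and 6164, 7719 and 7736 in the PDGFA libraries. The lowest PDGFA library lay above the highest EF library. The means were 466.6 ± 321 (SD, n = 3) and 7206 ± 903, a 15.4-fold rise. On the log2 scale this was 4.17 (SE 0.44, adjusted p = 0.000349), and alternatives gave adjusted p-values between 4.63e-17 and 0.0135.

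Elavl4 (chr4:110203722-110351909, minus strand) moved the other way. Its EF libraries had 460.6, 447.0 and 544.6 and its PDGFA libraries 224.9, 189.1 and 97.7. The groups did not overlap, and the log2 fold change was -1.58 (SE 0.33, adjusted p = 0.00756). This call was lost without both libraries of mouse 68, and alternatives gave adjusted p-values between 4.73e-05 and 0.0529. Elavl1 (chr8:4285382-4325413, minus strand), widely expressed, had 4694, 5403 and 6960 in EF and 5541, 5511 and 4691 in PDGFA. Its groups overlapped (log2 fold change -0.10, SE 0.18, adjusted p = 0.679). Elavl2 was not called either, with means of 612.0 ± 193 in EF and 424.9 ± 68.5 in PDGFA (adjusted p = 0.172).

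The make-up of the family changed with these moves. Per kilobase of exon, Elavl3 was 8.58% ± 5.70 of the summed Elavl level in EF and 63.8% ± 5.07 in PDGFA (n = 3 each). Elavl1 went from 70.4% ± 4.0 to 31.1% ± 3.68 and Elavl4 from 11.7% ± 1.76 to 1.95% ± 0.814. Elavl1 was thus the most abundant family member in each EF library, and Elavl3 in each PDGFA library. Neuron markers fixed for comparison rose for 3 of 12 tested (Tubb3, Dcx and Ina), where 21.8% of all tested genes were called higher. They fell for 0, with 0 lower at an unadjusted p under 0.05 and 1 by DESeq2 (Gap43, adjusted p = 0.0494). Of the 12, 7 had a positive and 5 a negative log2 fold change. Dcx, of migrating young neurons, had means of 130.8 in EF and 4934 in PDGFA (37.7-fold), and Tubb3, a neuronal tubulin, 187.2 and 765.2 (4.09-fold). Gap43 went the other way, with means of 5121 and 2128 and overlapping groups (log2 fold change -0.89, adjusted p = 0.301). Snap25, Syt1, Nefl and Nefm also had negative log2 fold changes and were not called. The summed level of the list was 32684 to 35403 in EF and 32650 to 44472 in PDGFA, most of it from Map2 (23829 to 32667 in each library, not called), with Slc17a6 not in the table and Stmn2 and Slc17a7 below the filter. Their part in the Elavl3 result was not tested.

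**Figure D2:**
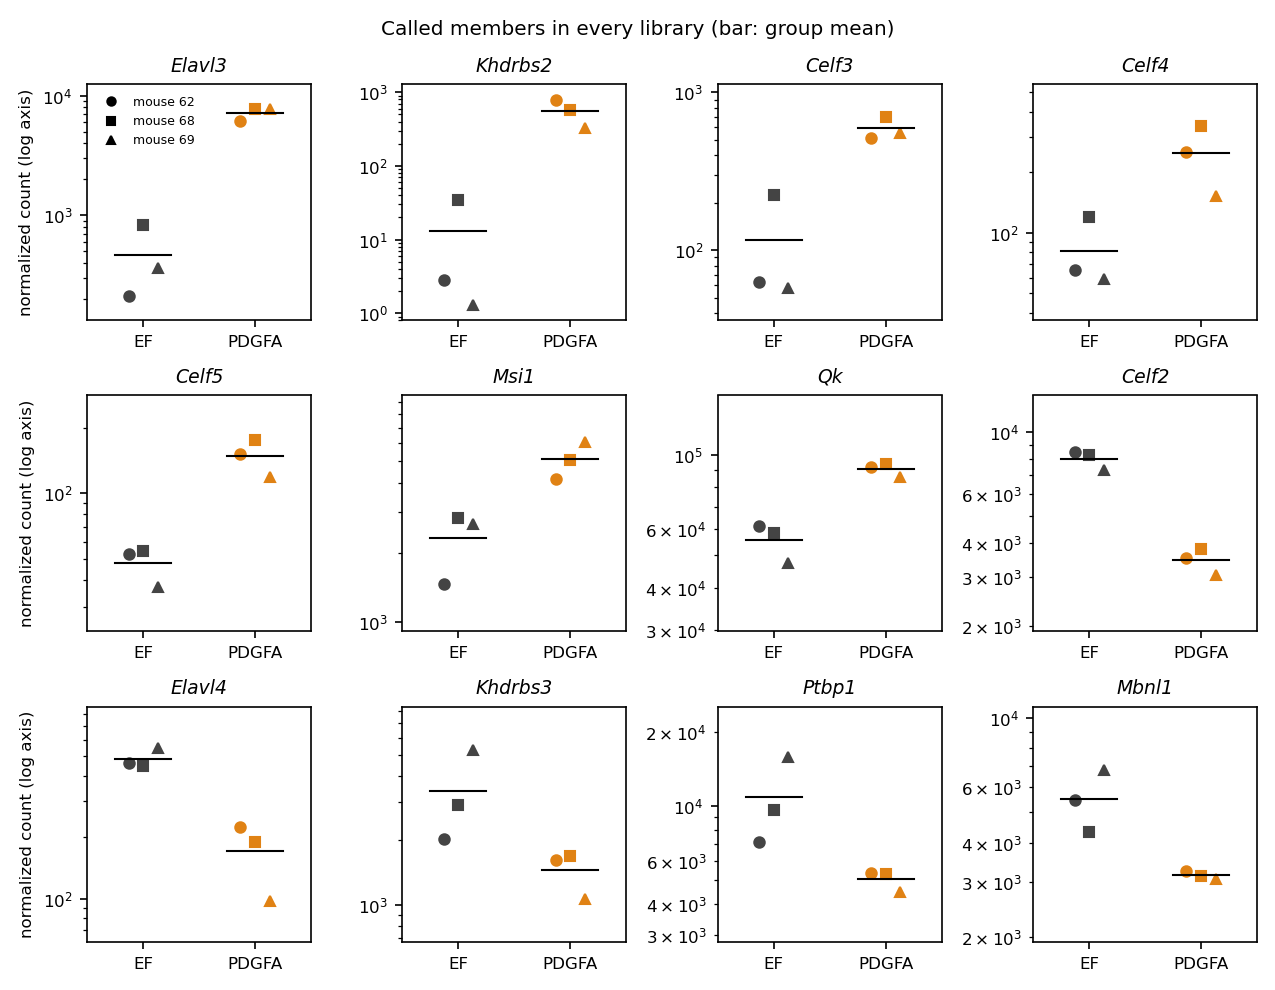
Normalized counts (y axes, log scale, a separate range for each gene) of 12 called genes are plotted in each library by medium. Symbols mark the mouse and bars the group mean; in each panel the EF and PDGFA libraries do not overlap.

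Khdrbs1, Khdrbs2 and Khdrbs3 encode the STAR proteins Sam68, SLM1 and SLM2, which bind UAAA-like sites and choose exons of the neurexins, the synaptic adhesion genes. Khdrbs2 (chr1:32172714-32658568, plus strand) had 2.87, 34.9 and 1.28 normalized counts in EF and 795.3, 566.2 and 324.3 in PDGFA. The EF values rest on 3, 31 and 1 reads, and the EF library of mouse 68 held most of them. The means of 13.0 ± 19.0 and 561.9 ± 235 (SD, n = 3) differ 43.2-fold. The fitted log2 fold change was 6.27 (SE 0.97, adjusted p = 0.00206). Without the EF library of mouse 68 it was 7.47, without that of mouse 69 it was 5.48, and without both libraries of mouse 68 it was 7.42. The adjusted p stayed at or under 0.0200 in the alternatives run.

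Khdrbs3 (chr15:68928420-69101211, plus strand) had 2030, 2925 and 5248 in EF and 1619, 1679 and 1068 in PDGFA. Each PDGFA library lay below each EF library, with the EF library of mouse 69 far above the others. On the log2 scale the fall was -1.14 (SE 0.35, adjusted p = 0.0347). The call was lost without the EF library of mouse 68 or 69, and without any of the PDGFA libraries, with adjusted p-values up to 0.12. Khdrbs1 (chr4:129703164-129742303, minus strand), the widely expressed member, had 5756, 7360 and 8319 in EF and 6011, 6495 and 5463 in PDGFA. Those groups overlapped (log2 fold change -0.24, SE 0.17, adjusted p = 0.294). Per kilobase, Khdrbs1 held 56.0% ± 7.55 of the family level in EF and 67.7% ± 4.25 in PDGFA, and Khdrbs3 43.9% ± 7.59 and 28.4% ± 3.10. Khdrbs1 led in each library except the EF library of mouse 69, where Khdrbs3 had 52.5%, and Khdrbs2 reached 3.87% ± 1.33 from 0.0659% ± 0.0939. The exception rests on the annotated exon lengths, 6419 bases for Khdrbs1 and 3662 for Khdrbs3. In normalized counts Khdrbs1 was above Khdrbs3 in that library too.

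Celf proteins bind GU-rich RNA. Celf1 and Celf2 are made in many tissues, and Celf3, Celf4, Celf5 and Celf6 mainly in the nervous system. Celf2 (chr2:6539694-7509563, minus strand) had 8466, 8238 and 7296 in EF and 3534, 3807 and 3065 in PDGFA. The 2 groups were far apart for their spread: the means were 8000 ± 620 and 3469 ± 375 (SD, n = 3), a 2.31-fold fall. The log2 fold change was -1.21 (SE 0.14, adjusted p = 0.000537), and alternatives gave adjusted p-values between 4.51e-12 and 0.0133. Celf1 (chr2:90940382-91019497, plus strand) had 8032, 8783 and 11453 in EF and 7403, 6865 and 5597 in PDGFA. It did not pass the test (log2 fold change -0.50, SE 0.18, adjusted p = 0.0644), although it did with DESeq2 (adjusted p = 0.0361) and with total-count scaling.

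Of the nervous-system Celf genes, all at low levels, Celf3, Celf4 and Celf5 rose and Celf6 was not called. Celf3 (chr3:94478295-94492198, plus strand) had 63.2, 225.2 and 57.5 in EF and 517.7, 700.9 and 554.6 in PDGFA. As for Elavl3 and Khdrbs2, the EF library of mouse 68 was the highest of its group, and it was still below each PDGFA library. The log2 fold change was 2.63 (SE 0.51, adjusted p = 0.00548), it was 3.26 without the EF library of mouse 68, and the call was lost without both libraries of mouse 69. Celf5 (chr10:81459227-81482709, minus strand) had 52.7, 54.0 and 37.1 in EF and 151.9, 175.7 and 119.2 in PDGFA. The EF cultures lay close together and all below the PDGFA cultures (log2 fold change 1.62, SE 0.31, adjusted p = 0.00509). The Celf5 call was lost without both libraries of mouse 68, and alternatives gave adjusted p-values between 5.87e-06 and 0.0766. Celf4 had 65.1, 120.5 and 58.8 in EF and 252.1, 340.9 and 153.2 in PDGFA. Its groups were separate too (log2 fold change 1.6, SE 0.40, adjusted p = 0.0173). Without the PDGFA library of mouse 62 or 68 the Celf4 call was lost, with adjusted p-values up to 0.0795.

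Celf6, with means of 8.07 ± 5.76 and 18.9 ± 3.91 from 22 and 63 reads in all, did not pass the test (adjusted p = 0.0901). Per kilobase, Celf1 was the leading member in both media, at 75.8% ± 5.04 of the Celf level in EF and 72.4% ± 2.59 in PDGFA. Celf3 held 0.884, 2.89 and 0.632% of it in EF and 8.12, 11.0 and 11.0% in PDGFA, and Celf2 went from 21.4% ± 4.11 to 12.4% ± 0.61.

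Celf3, Celf4, Celf5 and Khdrbs2 are among the 11 genes with a mean under 1000. The EF library of mouse 68 was the highest of its group for 7 of the 11 and for 4 of the other 49, against 24.0% of all tested genes. That library also had the highest EF sums of oligodendrocyte markers (6442, against 3257 and 3306) and of astrocyte markers (96730, against 51730 and 57281). Oligodendrocyte precursor markers set it apart further, with Pdgfra at 14133, against 860.9 and 533.1, and Gpr17 at 3702, against 122.6 and 24.3. Dcx stood at 345.6, against 24.9 and 21.7. Their part in the levels of these genes was not tested.

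Ptbp1 (chr10:79854427-79864771, plus strand) encodes the polypyrimidine tract-binding protein that represses neuronal exons, among them an exon of its relative Ptbp2. It had 7158, 9616 and 15840 in EF and 5364, 5297 and 4489 in PDGFA. The PDGFA cultures were tightly grouped and below each EF culture, while EF spanned a wide range. The means were 10871 ± 4470 and 5050 ± 487 (SD, n = 3), a 2.15-fold fall (log2 fold change -1.03, SE 0.28, adjusted p = 0.0218). The call was lost without any of the 3 PDGFA libraries, with an adjusted p of up to 0.107 over the alternatives. Other genes overlap 20.7% of the Ptbp1 exon length, and the library kit does not mark strand.

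Ptbp2 (chr3:119718742-119784466, minus strand), the neural form, had 4337, 3549 and 3484 in EF and 4421, 4165 and 3722 in PDGFA. Each mouse had slightly more in PDGFA, but the groups overlapped (log2 fold change 0.12, SE 0.14, adjusted p = 0.545). Ptbp3, a relative found in blood and other cells, had means of 3516 ± 858 and 2807 ± 199 and was not called (adjusted p = 0.232). Ptbp1 held 70.8% ± 6.93 of the family level per kilobase in EF and 56.4% ± 1.14 in PDGFA, and Ptbp2 14.1% ± 5.56 and 23.7% ± 0.752.

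**Figure D3:**
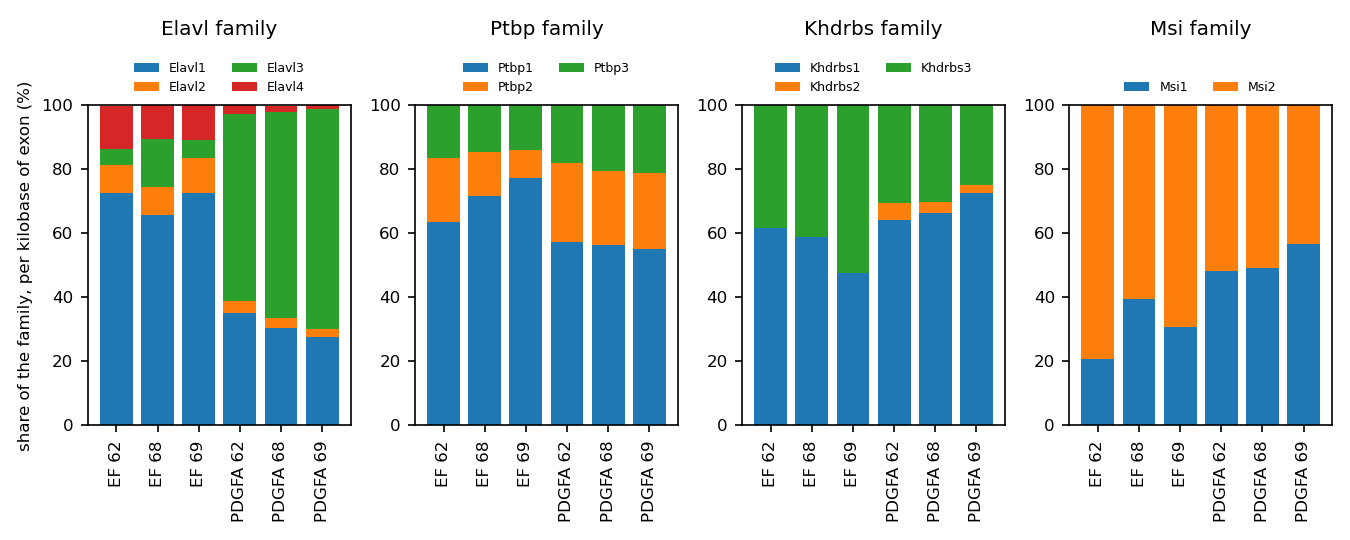
The share of each gene in the summed level of its family, per kilobase of exon (y axis, percent), is stacked for each library (x axis: medium and mouse number) in the Elavl, Ptbp, Khdrbs and Msi families. Elavl3 takes 58.5 to 68.7% in the PDGFA libraries and 4.93 to 15.2% in the EF libraries.

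The Musashi proteins repress translation of their targets and are known from neural stem cells. Msi1 (chr5:115429599-115455698, plus strand) had 1455, 2818 and 2674 in EF and 4171, 5067 and 6027 in PDGFA. Every PDGFA culture was above every EF culture, at means of 5088 ± 928 against 2316 ± 749 (SD, n = 3), a 2.20-fold rise. On the log2 scale the rise was 1.18 (SE 0.27, adjusted p = 0.0123), and the call was lost without the PDGFA library of mouse 69 (over the alternatives, up to 0.0613). Msi2 (chr11:88339382-88718513, minus strand) had 9940, 7789 and 10772 in EF and 7981, 9402 and 8264 in PDGFA. Its groups overlapped (log2 fold change -0.14, SE 0.17, adjusted p = 0.525). Msi2 was above Msi1 per kilobase in each EF library, at 69.7% ± 9.29 of the pair, and the 2 were near parity in PDGFA, at 48.6% ± 4.58 for Msi2. The parity rests on the annotated exon lengths, 5800 bases for Msi1 and 10405 for Msi2. In normalized counts Msi2 was above Msi1 in each PDGFA library too.

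Qk (chr17:10202601-10319854, minus strand) encodes the STAR protein Quaking, which acts in splicing and RNA transport in oligodendrocytes. It was the member with the most reads. The EF libraries had 61059, 58371 and 47436 and the PDGFA libraries 92126, 93913 and 85663. The groups lay well apart, at means of 55622 ± 7220 and 90567 ± 4340 (SD, n = 3), a 1.63-fold rise. On the log2 scale the rise was 0.71 (SE 0.22, adjusted p = 0.0343), and with the mouse as a block the adjusted p was 0.0999. The call was also lost with total-count scaling, without the EF library of mouse 69 and without any PDGFA library, with an adjusted p of up to 0.216. Per kilobase, Qk stood at 3910 in EF and 6360 in PDGFA, where it was the highest of the 60 genes. The oligodendrocyte markers described above rose in the same libraries, and their part in the Qk result was not tested.

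Muscleblind proteins bind YGCY sites and drive the switch from fetal to adult exons. Mbnl1 (chr3:60472830-60629750, plus strand) had 5459, 4320 and 6802 in EF and 3246, 3129 and 3068 in PDGFA. The PDGFA values were nearly equal and below all EF values (log2 fold change -0.79, SE 0.18, adjusted p = 0.0111). The Mbnl1 call was lost without both libraries of mouse 69, and alternatives gave adjusted p-values between 0.000493 and 0.0542. Mbnl2 (chr14:120275669-120431697, plus strand) had 4696, 3294 and 3211 in EF and 3318, 3332 and 4090 in PDGFA, with overlapping groups (log2 fold change -0.05, SE 0.19, adjusted p = 0.865). Mbnl3 was near the floor, with 46 reads in EF and 12 in PDGFA. It was called lower (log2 fold change -1.94, SE 0.59, adjusted p = 0.0354). With means of 16.7 in EF and 3.67 in PDGFA, it passed the filter on low values only through EF. Its direction is thus tied to the filter. The Mbnl3 call was lost with the mouse as a block (0.0743), without the EF library of mouse 62 or 69, and without the PDGFA library of mouse 62 or 69. Without both libraries of mouse 68 its log2 fold change was -2.81.

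The Rbfox and Nova families, which bind GCAUG and YCAY and are best known from neurons, had no called member by limma or edgeR. At an unadjusted p under 0.05, 1 of these 5 genes (Rbfox2) was lower and 0 were higher. Rbfox2 (chr15:77078990-77307004, minus strand), the form made outside neurons as well, had 3047, 2977 and 3491 in EF and 2514, 2635 and 1993 in PDGFA. Its groups did not overlap, but it did not pass the test (log2 fold change -0.42, SE 0.15, adjusted p = 0.0629). DESeq2 (0.0466), TMM scaling and total-count scaling did call it. Rbfox1 had 7, 25 and 11 reads in EF and 7, 13 and 22 in PDGFA, too few to show a moderate difference at this depth (log2 fold change -0.27, SE 0.63, adjusted p = 0.762). Rbfox3, whose protein is the neuronal marker NeuN, had means of 82.4 ± 42.0 in EF and 93.4 ± 34.9 in PDGFA (log2 fold change 0.24, SE 0.46, adjusted p = 0.712), and without both libraries of mouse 69 its log2 fold change was 0.88. Rbfox2 made up 95.7% ± 1.67 of the family level per kilobase in EF and 94.0% ± 1.12 in PDGFA.

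Nova1 (chr12:46694517-46818929, minus strand) had 3090, 3443 and 2458 in EF and 4923, 3779 and 2733 in PDGFA. It was higher in PDGFA for each mouse, but the groups overlapped (log2 fold change 0.32, SE 0.24, adjusted p = 0.315). Nova2 (chr7:18925888-18965319, plus strand) had 3472, 5134 and 4659 in EF and 3939, 4471 and 3418 in PDGFA, also overlapping (log2 fold change -0.15, SE 0.19, adjusted p = 0.538). Other annotated genes overlap 31.7% of the Nova2 exon length.

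Among the 20 hnRNP genes, 4 fell and 0 rose, and 17 had a negative log2 fold change, with a median of -0.41. Over all tested genes, 18.0% were called lower and 50.5% had a negative log2 fold change, so the called share of the hnRNP genes was near the background. At an unadjusted p under 0.05, 7 were lower and 0 higher, against 22.8% and 26.2% of all tested genes. edgeR called 5 lower and DESeq2 7, and neither called a rise. Many hnRNP and SR genes have near-identical processed copies elsewhere in the genome, so their counts are uncertain to that extent. Hnrnpll (chr17:80029487-80062334, minus strand), a regulator of CD45 exons in lymphocytes, had 4114, 4648 and 6241 in EF and 2778, 2583 and 2381 in PDGFA. The groups were separate (log2 fold change -0.93, SE 0.18, adjusted p = 0.00523), and the call was lost without both libraries of mouse 68 (0.0575). Hnrnpa3 (chr2:75659261-75669407, plus strand), of the A/B group, had 7832, 10758 and 19931 in EF and 5967, 5988 and 4761 in PDGFA. Its EF values spread widely, and the lowest of them was still above PDGFA (log2 fold change -1.10, SE 0.32, adjusted p = 0.0299). Hnrnpdl (chr5:100033577-100039664, minus strand), a relative of Hnrnpd, had 8739, 8154 and 12236 in EF and 6539, 5764 and 4755 in PDGFA. These groups were also separate (log2 fold change -0.76, SE 0.20, adjusted p = 0.0205).

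Hnrnpa1, the founding silencer of the A/B group, had means of 14714 ± 3310 and 9367 ± 1280 (SD, n = 3; log2 fold change -0.64, SE 0.20, adjusted p = 0.0394). The blocked fit gave it an adjusted p of 0.0829. Leaving out single libraries ended the Hnrnpa3 and Hnrnpa1 calls without the EF library of mouse 68 and without each PDGFA library, the Hnrnpa1 call also without the EF library of mouse 69, and the Hnrnpdl call without the PDGFA library of mouse 68 or 69. Hnrnpab (chr11:51600100-51606847, minus strand), the hnRNP gene with the highest EF level per kilobase (6460, against 3470 in PDGFA), had 10437, 17194 and 26250 in EF and 10563, 10165 and 8191 in PDGFA. Its groups overlapped, since the EF library of mouse 62 lay at the PDGFA level (log2 fold change -0.81, SE 0.32, adjusted p = 0.0801), and DESeq2 called it (0.0194). The other 15 hnRNP genes had log2 fold changes between -0.67 (Hnrnpf) and 0.21 (Hnrnph3), with 0 called. Hnrnpu, not called by limma (adjusted p = 0.0609), was called by edgeR (0.0497) and by DESeq2 (0.0148).

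The hnRNP genes followed the libraries of mouse 69. The EF library of that mouse was the highest of its group for 20 of 20 hnRNP genes and for 43 of the 60 genes (71.7%), against 41.3% of all tested genes and 53.5% of those with a mean of at least 1000. The PDGFA library of the same mouse was the lowest of its group for 18 of 20 and for 49 of the 60 (81.7%), against 41.4% of all tested genes and 55.2% of those with a mean of at least 1000. Summed over the 20 genes, EF had 184487, 210317 and 308930 normalized counts and PDGFA 179281, 174878 and 150504. The lowest EF sum, of mouse 62, was thus close to the highest PDGFA sum. That library also had the lowest normalized total over all genes, 28874700, against 33241500 to 34862900 in the others. As percent of the library total, the hnRNP genes had 0.639, 0.63 and 0.886 in EF and 0.533, 0.526 and 0.44 in PDGFA. On this scale the groups did not overlap. Without the EF library of mouse 69 the median log2 fold change of the hnRNP genes was -0.18, with 13 negative and 3 called lower, and without both libraries of that mouse it was -0.06, with 1 called lower. The share of all tested genes called lower is not given for either fit, so these counts have no background. The sums of the dividing-cell markers had the same order within EF as the hnRNP sums. The library of mouse 69 was highest for 10 of 10, at a sum of 100856, with 72337 for mouse 68 and 45952 for mouse 62. As percent of the library total these markers had 0.289, 0.217 and 0.159, while the hnRNP values of mice 62 and 68 were nearly equal. Within PDGFA the order of the dividing-cell markers was the other way, with the library of mouse 69 highest in sum at 854.7. Their part in the hnRNP result was not tested.

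**Figure D4:**
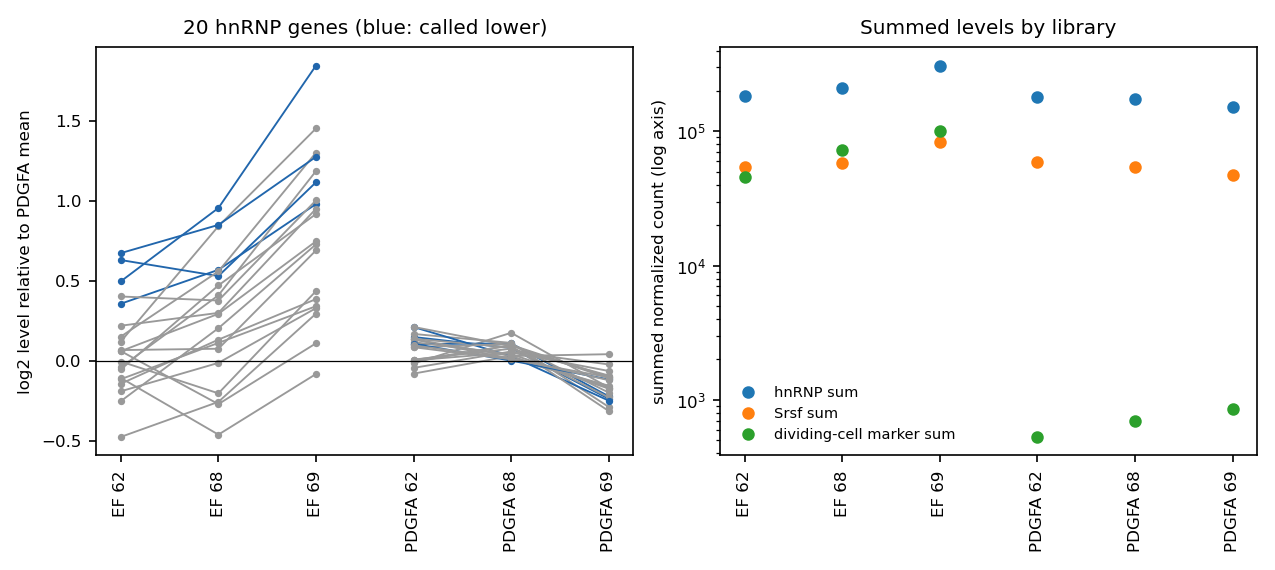
Left, the log2 level of each of the 20 hnRNP genes relative to its PDGFA mean (y axis) in the 6 libraries (x axis: medium and mouse), with lines joining values of a gene and the 4 called genes in blue. Right, the summed normalized counts (log axis) of the hnRNP genes, the Srsf genes and 10 dividing-cell markers; the EF library of mouse 69 has the highest hnRNP sum, 308930.

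Of the 11 SR protein genes, 1 fell, 0 rose and 10 were not called, and their median change was -0.37 (log2). At an unadjusted p under 0.05, 3 were lower and 0 higher. The background was 18.0% lower and 21.8% higher at the adjusted threshold and 22.8% and 26.2% at the unadjusted one. edgeR called 1 lower and DESeq2 2, with 0 higher in each. Srsf9 (chr5:115327177-115333080, plus strand), a small SR protein with a short RS domain, had 1760, 2618 and 3456 in EF and 1567, 1563 and 1448 in PDGFA. The PDGFA values were nearly equal, and the EF library of mouse 62 was little above them. The log2 fold change was -0.72 (SE 0.24, adjusted p = 0.0448), and with the mouse as a block the adjusted p was 0.0525. The call was lost without any single library other than the EF library of mouse 62, with adjusted p-values up to 0.129. Srsf2 (chr11:116849901-116853094, minus strand), the SR gene with the highest level per kilobase, had 6015, 7941 and 12748 in EF and 7095, 6677 and 5159 in PDGFA. Its groups overlapped (log2 fold change -0.44, SE 0.28, adjusted p = 0.246), and other genes overlap 25.3% of its exon length.

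Srsf5, Srsf6 and Srsf12 had positive log2 fold changes, against the family's median. Srsf12 was at low levels, with means of 70.7 ± 36.8 and 102.6 ± 6.65 (0.67, SE 0.42, adjusted p = 0.244). Srsf5, at means of 6634 ± 1380 and 8356 ± 665, was at 0.35 on the log2 scale (adjusted p = 0.16) and was called higher without the EF library of mouse 69. Srsf6, at 8579 ± 1380 and 9137 ± 1200, was at 0.09 (adjusted p = 0.693). Srsf1, the prototype SR protein, had means of 14099 ± 4250 and 9335 ± 1240 (log2 fold change -0.56, adjusted p = 0.0936), and DESeq2 called it lower (0.0484). Without the EF library of mouse 62, 4 SR genes were called lower, and without both libraries of mouse 69 the family's median was -0.07.

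Tra2 proteins are SR-like activators that bind GAA-rich exons. Tra2b (chr16:22244549-22266005, minus strand) had 3324, 3766 and 5451 in EF and 2795, 2661 and 2298 in PDGFA. It was lower in each PDGFA culture (log2 fold change -0.67, SE 0.20, adjusted p = 0.0341), with an adjusted p of 0.0609 with the mouse as a block. The Tra2b call was lost without the EF library of mouse 68 and without each PDGFA library, at up to 0.118. Tra2a (chr6:49243924-49264033, minus strand) had 3908, 3262 and 4211 in EF and 4218, 3590 and 4012 in PDGFA, with overlapping groups (log2 fold change 0.06, SE 0.15, adjusted p = 0.771).

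The balance between close relatives was compared within each library, for 9 pairs, as the log2 ratio of their normalized counts. An exact two-sided permutation test of 3 against 3 libraries cannot go below p = 0.1, which adjusts to 0.129 over the 9 pairs, so no pair could pass. For 7 of the 9 pairs the ratios did not overlap between the media. Each of these 7 holds a gene called by itself (Ptbp1, Msi1, Mbnl1, Elavl4, Khdrbs3, Tra2b or Celf2), and the Nova and Rbfox pairs hold none. No share over other pairs of genes was computed, and the pairs were chosen with earlier results known. The count is therefore not a result apart from the single-gene calls. The Ptbp2 to Ptbp1 ratio stood at -0.72, -1.44 and -2.18 in EF, against -0.28, -0.35 and -0.27 in PDGFA, a difference of 1.15, with Ptbp1 called and Ptbp2 not. The Msi2 to Msi1 ratio stood at 2.77, 1.47 and 2.01 in EF, against 0.94, 0.89 and 0.46 in PDGFA, a difference of -1.32. The SD of the Ptbp ratio was 0.73 in EF and 0.04 in PDGFA.

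The other non-overlapping pairs differed by -1.48 for Elavl4 to Elavl1, -0.90 for Khdrbs3 to Khdrbs1, 0.74 for Mbnl2 to Mbnl1, 0.73 for Tra2a to Tra2b and -0.71 for Celf2 to Celf1. Where the ratios do not overlap between the media, the 3 mice must have the same direction. The 3 mice also had the same direction in Nova1 to Nova2. Nova1 to Nova2 differed by 0.47 (exact permutation p = 0.3, adjusted 0.337) and Rbfox1 to Rbfox2 by 0.15 (exact permutation p = 0.7), both with overlapping ratios.

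**Figure D5:**
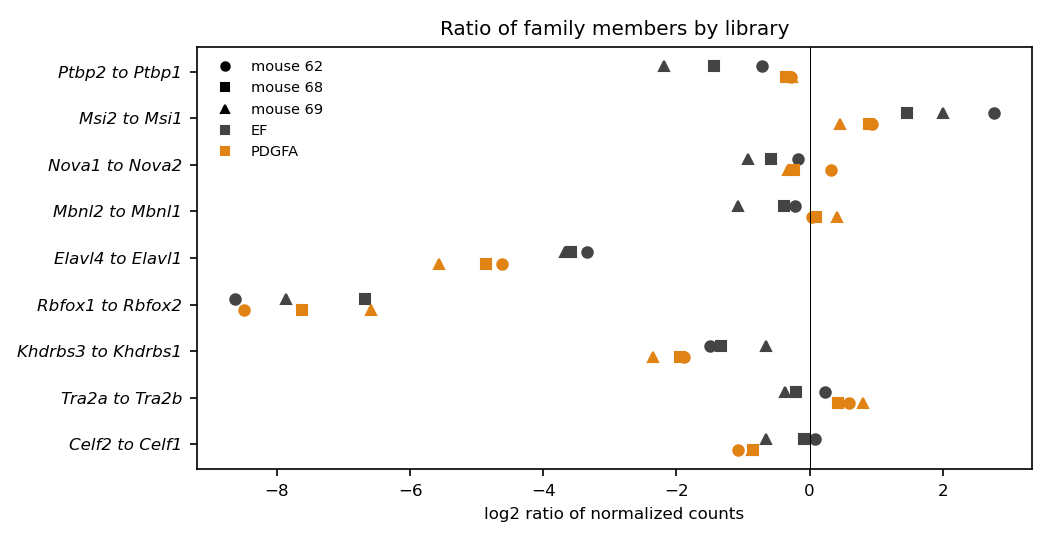
The log2 ratio of normalized counts within 9 pairs of relatives (x axis) is plotted for each library, with symbols for the mouse and colours for the medium. The PDGFA points of Ptbp2 to Ptbp1 lie between -0.35 and -0.27 and the EF points between -2.18 and -0.72.

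SR proteins are active when phosphorylated, and their kinases were compared as a list of 9 genes. Srpk2, Srpk3, Clk1 and Clk4 rose, 0 of the 9 fell (1 at an unadjusted p under 0.05, and 0 by edgeR or DESeq2), and the list's median was 0.05 (log2). All tested genes were called higher at 21.8%. Without any single PDGFA library 2 kinases were left as calls, since Clk1 and Clk4 lost theirs. Srpk3, known from muscle, had 158.0, 174.5 and 65.2 in EF and 2609, 1909 and 2000 in PDGFA. This was the largest difference of the list (log2 fold change 4.13, SE 0.37, adjusted p = 0.000171), and it was called under each alternative. Srpk2, the neural SR protein kinase, had 4774, 4178 and 3615 in EF and 6590, 6654 and 6798 in PDGFA (log2 fold change 0.68, SE 0.14, adjusted p = 0.00766). Its groups were separate, with PDGFA values close together.

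Genes of the spliceosome core were read against the 39.8% of all tested genes called either way. Of 23 proteins of the U1 and U2 particles and of splice-site recognition, 0 were called by limma, with 18 negative and a median of -0.36. At an unadjusted p under 0.05, 4 were lower and 0 higher, against 22.8% and 26.2% of all tested genes. edgeR called 2 lower and DESeq2 3, against 19.1% and 21.9% of all tested genes, and total-count scaling 6. The EF library of mouse 69 was highest for 20 of these 23, and 11 of them were called lower without the EF library of mouse 62. That removal also gave the most falls over all tested genes among the single-library removals, as given in the closing section. Of 8 Sm core proteins, Snrpb and Snrpf fell and Snrpn rose, and with total-count scaling 4 fell and 1 rose. Snrpn, the neural Sm protein that stands in for Snrpb, had 320.8, 492.0 and 370.7 in EF and 806.3, 839.3 and 699.7 in PDGFA. It lay higher in each PDGFA library (log2 fold change 1.0, SE 0.20, adjusted p = 0.00715). Snrpb had 2982, 3925 and 5766 in EF and 2680, 2627 and 2163 in PDGFA (log2 fold change -0.72, SE 0.24, adjusted p = 0.0488), and the blocked fit gave 0.0698. Snrpf had 656.0, 819.6 and 1428 in EF and 509.2, 456.4 and 394.2 in PDGFA (log2 fold change -1.02, adjusted p = 0.0274). The Snrpf and Snrpb calls were each lost without any of the 3 PDGFA libraries, and that of Snrpb also without the EF library of mouse 68 or 69 (up to 0.126 and 0.186), while Snrpn kept its call under each alternative.

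Of 26 proteins of the tri-snRNP and the catalytic core, Slu7 rose and Prpf4 fell. Slu7, which helps choose the 3′ splice site, had 1177, 972.8 and 1122 in EF and 1630, 1749 and 1666 in PDGFA (log2 fold change 0.63, adjusted p = 0.00898), and lost its call without the PDGFA library of mouse 68 (up to 0.16). Prpf4 of the U4/U6 particle had 1463, 1397 and 2224 in EF and 1132, 1098 and 1063 in PDGFA (log2 fold change -0.59, adjusted p = 0.0465, and 0.0682 with the mouse as a block). The Prpf4 call was also lost without any PDGFA library (up to 0.133), and total-count scaling gave 5 falls and 1 rise in this list. Of 11 SR-related cofactors, Srrm3, an activator of neural microexons, rose from 13.4, 55.2 and 12.8 to 89.1, 130.8 and 58.2 (log2 fold change 1.99, adjusted p = 0.0365). Sfpq, a paraspeckle protein, fell from 18930, 17254 and 24525 to 13906, 12450 and 10954 (log2 fold change -0.69, adjusted p = 0.0219, and 0.0548 with the block). The Srrm3 call was lost with edgeR (0.0658), without the EF library of mouse 62 or 69 and without any PDGFA library, and the Sfpq call without the PDGFA library of mouse 68 or 69. The Srrm3 values are low, and its highest EF library, mouse 68, was close to its lowest PDGFA library.

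Among 38 other RNA-binding proteins tested, 6 rose and 8 fell, near the 21.8% and 18.0% of all tested genes. edgeR called 4 rises. Without the PDGFA library of mouse 62 or 69 there were 2 rises and without that of mouse 68 there were 3, with 5 or 6 falls. Cpeb2, which controls translation through cytoplasmic polyadenylation, had 1190, 1494 and 1083 in EF and 5681, 5533 and 5466 in PDGFA. The PDGFA values differed little from each other, and the rise was the clearest of this list (log2 fold change 2.16, SE 0.15, adjusted p = 5.55e-05). Zfp36l1, a decay factor for AU-rich RNA, had 3991, 4201 and 4689 in EF and 6708, 8705 and 7298 in PDGFA (log2 fold change 0.81, adjusted p = 0.00433). Rbm20, known for titin splicing in the heart, had 685.7, 681.2 and 793.9 in EF and 257.2, 277.9 and 237.4 in PDGFA (log2 fold change -1.48, SE 0.17, adjusted p = 0.000537). Rbm24, a muscle splicing activator, had 556.4, 608.0 and 834.8 in EF and 300.5, 287.4 and 327.9 in PDGFA (log2 fold change -1.10, adjusted p = 0.00477). In these 4 genes the groups did not overlap. Cpeb2 and Rbm20 kept their call under each alternative, while Zfp36l1 and Rbm24 lost it without both libraries of mouse 68 (adjusted p-values of 0.0805 and 0.0649).

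The start regions of the genes were compared as sequence, a property that neither the gene rule nor the counts used. RefSeq promoter windows (GRCm38.p6) were found for 52 of the 60 genes, 91 windows in all, and the 250 bases before each start were searched. No window was used for Msi1, Hnrnpll, Hnrnpul2, Ptbp3, Rbfox2, Celf4, Khdrbs1 and Khdrbs3. The GC box (GGGCGG on either strand) was in 65.9% of these windows and in 32.7% of all 32851 RefSeq windows of that length. The CCAAT box (CCAAT on either strand) was in 49.5% and 33.8%, the E2F-like motif TTTNNCGC in 9.89% and 4.28%, and the CRE core TGACG in 36.3% and 17.8%. The median GC content was 62% in the members' windows and 52.4% in all windows, with 18 against 6 CG dinucleotides. These shares describe the windows, several of which belong to the same gene, such as 7 for Celf3 and 6 for Elavl2. Many windows lie wholly inside the annotated gene, before an internal start, among them all 5 of Celf2. By gene, 40 of the 52 had a GC box, 29 a CCAAT box, 9 the E2F-like motif and 23 the CRE core. All RefSeq windows belong to 27025 genes, against 22057 in the deposited table. No share was computed for genes expressed at a like level or with a like GC content.

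Upstream regions of 5 genes are shown, as 250 bases before the RefSeq start on the strand of the gene, because they belong to the called genes with the largest rises (Khdrbs2, Elavl3) and falls (Hnrnpa3, Ptbp1, Srsf9) among those whose higher group averaged 50 or more and that have a single window that ends at most 10 bases into the gene. Capitals mark GC boxes, CCAAT boxes and E2F-like motifs on either strand, and where motifs touch or overlap the capitals run together.
Khdrbs2, chr1:32172472-32172721, plus strand: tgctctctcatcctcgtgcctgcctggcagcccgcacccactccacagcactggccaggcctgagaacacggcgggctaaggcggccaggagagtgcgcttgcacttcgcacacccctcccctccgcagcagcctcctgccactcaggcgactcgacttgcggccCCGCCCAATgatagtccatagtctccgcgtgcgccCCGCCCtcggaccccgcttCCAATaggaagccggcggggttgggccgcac
Elavl3, chr9:22052024-22052273, minus strand: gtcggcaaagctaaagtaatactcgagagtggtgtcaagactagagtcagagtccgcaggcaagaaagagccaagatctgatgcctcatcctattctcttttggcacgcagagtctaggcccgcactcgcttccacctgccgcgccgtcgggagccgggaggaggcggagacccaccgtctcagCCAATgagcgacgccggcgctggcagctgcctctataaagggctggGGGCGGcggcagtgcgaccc
Hnrnpa3, chr2:75659009-75659258, plus strand: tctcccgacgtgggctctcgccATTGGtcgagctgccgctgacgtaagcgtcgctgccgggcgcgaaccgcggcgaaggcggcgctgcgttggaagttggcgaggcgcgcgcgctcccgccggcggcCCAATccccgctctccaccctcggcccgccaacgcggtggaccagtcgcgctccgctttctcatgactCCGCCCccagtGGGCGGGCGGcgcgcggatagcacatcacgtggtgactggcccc
Ptbp1, chr10:79854182-79854431, plus strand: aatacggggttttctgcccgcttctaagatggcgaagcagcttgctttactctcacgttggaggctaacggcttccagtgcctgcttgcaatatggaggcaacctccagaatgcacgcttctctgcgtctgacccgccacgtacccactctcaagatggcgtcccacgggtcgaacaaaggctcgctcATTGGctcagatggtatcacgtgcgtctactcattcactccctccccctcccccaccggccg
Srsf9, chr5:115326927-115327176, plus strand: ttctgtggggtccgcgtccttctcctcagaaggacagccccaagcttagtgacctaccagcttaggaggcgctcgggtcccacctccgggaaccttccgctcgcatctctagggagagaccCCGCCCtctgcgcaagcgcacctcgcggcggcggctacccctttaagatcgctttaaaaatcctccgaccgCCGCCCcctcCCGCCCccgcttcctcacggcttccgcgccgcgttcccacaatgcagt
The Hnrnpa3 window had 40 CG dinucleotides and the Srsf9 window 25, against 21 for Khdrbs2, 20 for Elavl3 and 17 for Ptbp1. A CCAAT box was found in 4 of these 5 upstream regions. No methylation or binding was measured, so the motifs are described as letters in the reference.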

How the data were processed

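The authors deposited normalized signal: gene read counts, each divided by a size factor of its library. FastQC, STAR, DESeq2 and mm10 (GRCm38) are listed, without versions, per the submitters' processing notes. RNA was extracted with RNeasy and 1.3 ug per library went into unstranded NEBNext Ultra II libraries, per the labels' protocols. Dividing by the value of 1 read gave whole reads for 100% of values (within 0.001), with size factors of 0.782 to 1.18. Replicates of a group differed beyond sampling noise, at 17.3 to 120 for chi-square over its degrees of freedom.

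Log2(normalized count + 1) was tested with limma 3.58.1 (R 4.3.3; eBayes with a mean trend, group only, two-sided, Benjamini-Hochberg at 0.05) over all 17068 genes with a mean of at least 10. The pseudocount pulls fold changes of low genes towards 0, and a difference of mean logs can lie above or below the log ratio of the means. SE belongs to the log2 fold change. edgeR 4.0.16 and DESeq2 1.42.0 on recovered reads, other pseudocounts, filters and scalings, a fit without the mean trend, a mouse block and removal of libraries were alternatives. The script was tested on simulated data.

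Mouse numbers pair the libraries by animal. The 2 libraries of a mouse, as deviations from their groups, correlated at -0.0906, 0.11 and -0.11 for mice 62, 68 and 69.

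The genes, lists, pairs and the rule for named genes were chosen with earlier results of these data known. The rule took, per family, up to 3 called genes per direction with the largest change and at least 50 as the mean of the higher group, both genes of each pair and the gene with the highest level per kilobase. From each list it took up to 2 called genes per direction with the smallest p. Celf6, Elavl2, Hnrnpa1, Hnrnpf, Hnrnph3, Hnrnpu, Mbnl3, Ptbp3, Rbfox3, Srsf1, Srsf5, Srsf6 and Srsf12 were named after their values were seen. Coordinates, exon lengths and coding sequences are from GENCODE vM21 (GRCm38). The exon length of a gene merges the exons of all its annotated transcripts, whether expressed here or not. Coding sequences were compared where a comparison of proteins had been planned. Some marker results are not reported here.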

Additional observations from a re-analysis of the deposited data

How the results depend on the processing

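Over all tested genes, 3720 rose and 3076 fell. Leaving out single libraries gave 2306 (without the PDGFA library of mouse 68) to 4213 higher and 1855 (the same) to 3848 lower, both maxima without the EF library of mouse 62, and without both libraries of mouse 68 there were 1945 and 1335. Without both libraries of mouse 68, 4 of the 60 genes rose and 3 fell, and without both libraries of mouse 69, an alternative chosen after seeing the data, also 4 and 3. Apart from the main fit, the block, edgeR, DESeq2 and the removals named before this, counts over all tested genes are not given. In those other settings the counts among the 60 genes, their families and the lists therefore have no background. Of the 60, 20 fell with total-count scaling (gained Hnrnpu, Celf1, Srsf4, Srsf10, Hnrnpf, Hnrnpab, Srsf1 and Rbfox2), 18 with DESeq2 and 7 without the mean trend. Leaving out single libraries gave 4 to 22 falls. Fewer libraries widen each gene's error. For the other settings the cause was not tested. With the mouse as a block (replicate block), 6 rose and 8 fell: Mbnl3, Srsf9, Hnrnpa1, Tra2b and Qk lost their call, and no other of the 60 calls changed. The other pseudocounts, no filter, edgeR and TMM scaling left each of the 19 calls in place. With a minimum mean of 50, 57 of the 60 were tested, and Mbnl3 was not among them. The difference in the Rbfox1 to Rbfox2 log ratio, 0.15, ran up to 0.67 without the EF library of mouse 68 and was -0.30 without the EF library of mouse 62, -0.34 without the PDGFA library of mouse 69 and -0.41 without both libraries of mouse 69. Depth limits Rbfox1, Mbnl3, Celf6 and the EF level of Khdrbs2, which rest on 12 to 63 reads per group where low.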
